A study of Saccharomyces cerevisiae with 4 samples.

Results

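The later part of the tricarboxylic acid cycle runs in mitochondria from 2-oxoglutarate to oxaloacetate, and in budding yeast its enzymes are encoded by KGD1, KGD2, LSC1, LSC2, SDH1, SDH2, SDH3, SDH4, FUM1 and MDH1. These 10 genes were taken by symbol from the annotation of the array, and each had 1 probe set that measured it alone. All 10 were among the 5425 genes that passed the filter on dim probe sets, which kept 5470 probe sets. The rule used their names and no measured value, but the 10 genes were chosen with earlier results of these data known. Together they carry out oxidative decarboxylation of 2-oxoglutarate, release of succinate with formation of a nucleoside triphosphate, oxidation of succinate, hydration of fumarate and oxidation of malate. Succinate dehydrogenase is also complex II of the respiratory chain: it passes electrons to ubiquinone through a flavin, iron-sulphur clusters and a membrane anchor. In yeast, glucose keeps the transcripts of this part of the cycle low, and the Hap2/Hap3/Hap4/Hap5 activator raises them when cells respire.

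Transcripts were measured on 4 Affymetrix Yeast Genome 2.0 arrays, each from the total RNA of 1 culture. Both groups were BY4741, a haploid of mating type a (MATa) that lacks working copies of 4 marker genes (ura3∆0, leu2∆0, his3∆1 and met15∆0). They were grown at 30 °C to mid-log phase in synthetic complete medium without leucine, and both carried a plasmid with the marker LEU2. In 2 cultures the plasmid was p425-GPD with an insert for RNase H1, an enzyme that cuts the RNA strand of RNA-DNA hybrids, behind the constitutive GPD promoter. In the other 2 it was p425-GPD without insert (empty vector). The comparison asks which transcripts differ when the plasmid carries RNase H1.

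The yeast gene RNH1 had signals of 320 and 292 in the empty-vector arrays and 303 and 307 in those with the insert. The labels do not name the species of the insert, so the RNH1 probe set gives no check of the labels; the groups are called empty-vector (or control) arrays and RNase H1 arrays here because the labels do. Signal sums per array ranged from 6889764 to 7097920, and the median signal of yeast probe sets from 559 to 606. For mating type a, the receptor gene STE2 had signals of 7352 and 7527 in the controls and 3903 and 3853 in the RNase H1 arrays. The a-factor genes were also lower, MFA1 at 4824 and 4813 against 3284 and 2250, and MFA2 at 5935 and 6124 against 3777 and 4964. Of the alpha-cell genes, the receptor gene STE3 was at 33.6 and 41.5 in the controls and 138 and 75.6 in the RNase H1 arrays. The alpha-factor gene MF(ALPHA)1 lay between 8.39 and 20.3. The signals of the deleted gene MET17 (MET15) lay between 2.33 and 9.02, while those of HIS3 lay between 3288 and 4098. The RNase H1 arrays differed more from each other than the controls did: 1550 of 5470 probe sets lay over 1.5-fold apart between them, against 182 between the empty-vector arrays.

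Every one of the 10 genes had a lower mean log2 signal in the RNase H1 arrays than in the empty-vector arrays, and 0 of the 10 passed the test. SDH1, the flavoprotein subunit of succinate dehydrogenase, lay lowest at a log2 fold change of −1.44 ± 0.23 (SE, n = 2 against 2; adjusted p = 0.0710, limma), followed by SDH2, the iron-sulphur subunit, at −0.94 ± 0.30 (adjusted p = 0.172). FUM1 lay nearest to 0, at −0.21 ± 0.11 (adjusted p = 0.301). Each array holds the RNA of a whole culture, so a lower level in every cell and fewer cells with the transcript cannot be told apart. The median over the 10 was −0.54, against −0.02 over all 5470 probe sets. Over all tested probe sets, 1.48% passed the threshold (adjusted p under 0.05), 0.347% as lower and 1.13% as higher. At an unadjusted p under 0.05, 6 of the 10 were lower and 0 higher, against a background of 12.7% lower and 11% higher. For 9 of the 10, SDH4 being the exception, both RNase H1 arrays lay below both empty-vector arrays, against 30.8% of all tested probe sets; for 0 of the 10 both lay above, against 28% of all. Without RNase H1 array 1 the median over the 10 was −0.65, against −0.08 over all probe sets. Without array 2 it was −0.42, against 0.04. Both of these fits take their spread from the empty-vector arrays alone. Without empty-vector array 1 the median over the 10 was −0.56, and without empty-vector array 2 it was −0.48. After quantile scaling SDH1 passed (adjusted p = 0.0460).

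**Figure D1:**
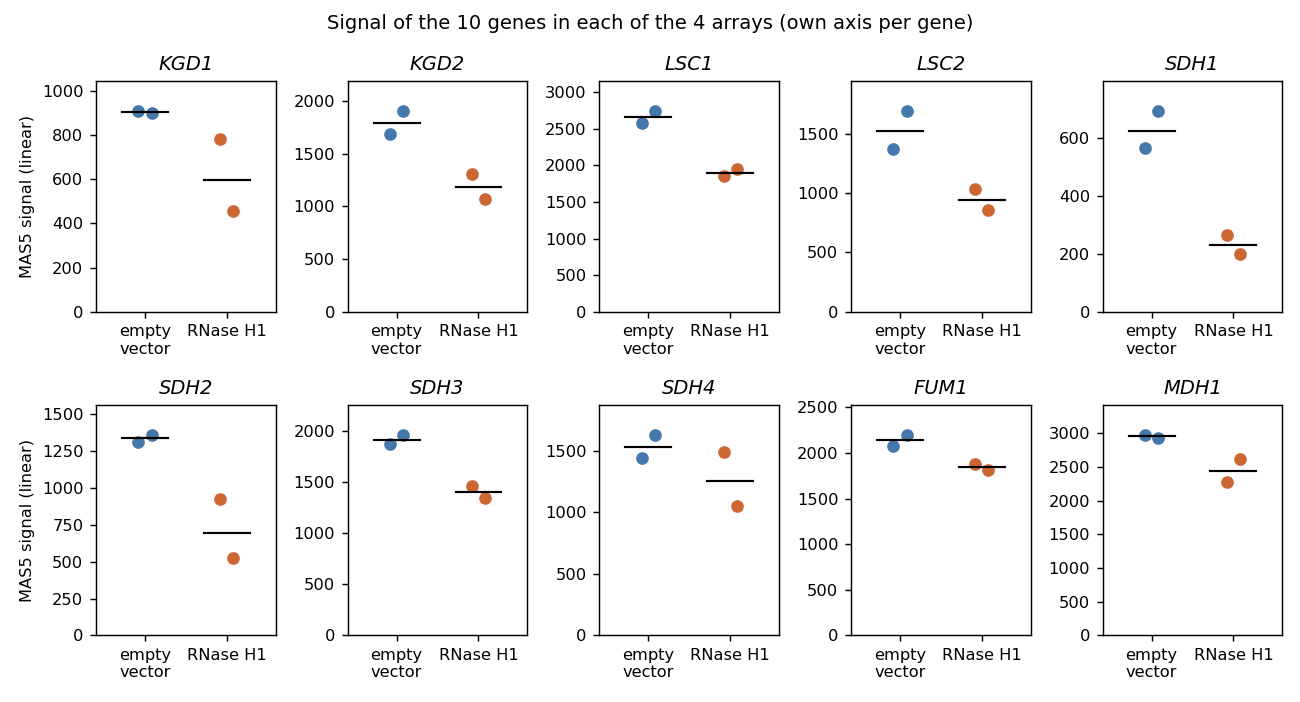
Deposited MAS5 signal (linear vertical axis from 0, scaled to each gene) of the 10 genes in the 2 empty-vector arrays (blue) and the 2 RNase H1 arrays (orange). Points are arrays and bars are geometric means of 2 arrays. The orange points lie below the blue ones for every gene except SDH4, where 1493 in array 1 lies above 1444 in an empty-vector array.

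The first step is catalysed by the 2-oxoglutarate dehydrogenase complex. KGD1, its E1 subunit, had signals of 909 and 899 in the empty-vector arrays and 781 and 457 in arrays 1 and 2 of RNase H1. The controls agreed closely, and the lower signal in array 2 set most of the difference. The log2 fold change of KGD1 was −0.60 ± 0.29 (adjusted p = 0.281, limma, as for every adjusted p below), with a 95% interval from −1.35 to 0.16. KGD2, the E2 subunit that carries lipoic acid, had signals of 1690 and 1907 in the controls and 1312 and 1068 in the RNase H1 arrays. Its arrays did not overlap between the groups. KGD2 was at a log2 fold change of −0.60 ± 0.16 (adjusted p = 0.132). The subunits had the same mean fold change to 2 decimals, but the log2 ratio of KGD1 to KGD2, set to the control mean, was 0.24 in array 1 and −0.23 in array 2.

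LSC1 and LSC2 encode the alpha and beta subunits of succinyl-CoA ligase, which releases succinate. LSC1 had signals of 2576 and 2743 in the controls and 1858 and 1946 in the RNase H1 arrays. Within each group its arrays lay close together, at 0.09 and 0.07 apart on the log2 scale. LSC1 was at −0.48 ± 0.11 (adjusted p = 0.1004), with a 95% interval from −0.76 to −0.21. LSC2 had signals of 1369 and 1690 in the controls and 1031 and 857 in the RNase H1 arrays. The groups of LSC2 did not overlap, though its control arrays were the farthest apart among the 10 genes, by 0.30 on the log2 scale. Its log2 fold change was −0.69 ± 0.18 (adjusted p = 0.126).

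Succinate dehydrogenase has 4 subunits, of which SDH1 and SDH2 form the catalytic head and SDH3 and SDH4 the membrane anchor. SDH1 had signals of 563 and 691 in the controls and 265 and 199 in the RNase H1 arrays. Both RNase H1 arrays lay far below either control, and the geometric mean was 36.8% of that of the controls (230 against 624). The 95% interval of the log2 fold change of SDH1 ran from −2.05 to −0.83, and the gene ranked 37 from the lowest among the 5470 probe sets.

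SDH2 had signals of 1313 and 1360 in the controls and 928 and 522 in the RNase H1 arrays. The groups did not overlap, but the RNase H1 arrays were 0.83 apart on the log2 scale, the widest gap of the 10 genes. The log2 fold change of SDH2 was −0.53 with array 1 alone against the controls and −1.36 with array 2 alone. SDH3, a cytochrome b subunit that in yeast also serves in the inner membrane import complex TIM22, had signals of 1866 and 1959 in the controls and 1458 and 1343 in the RNase H1 arrays. Its groups lay apart, with narrow spreads in both. SDH3 was at −0.45 ± 0.12 (adjusted p = 0.132).

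SDH4 had signals of 1444 and 1630 in the controls and 1493 and 1052 in the RNase H1 arrays. It was the 1 gene of the 10 whose groups overlapped, since array 1 lay between the controls. The log2 fold change of SDH4 was −0.29 ± 0.21 (adjusted p = 0.444), and its 95% interval, from −0.84 to 0.26, takes in both 0 and the value of SDH3. The mean change was not of the same size for each subunit, but differences between subunits were not tested. The log2 ratio of SDH1 to SDH4, set to the control mean, was −1.20 and −1.10 in the RNase H1 arrays. In the controls it was −0.06 and 0.06. In the RNase H1 arrays the same ratio of SDH1 to SDH3 was −0.85 and −1.14, and that of SDH1 to SDH2 −0.71 and −0.29. The ratio of SDH3 to SDH4 was −0.35 and 0.04. With 2 arrays in each group the smallest p of an exact permutation test (two-sided) is 0.333, so these ratios are given as values.

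FUM1 encodes fumarase, 1 gene whose product serves both mitochondria and cytosol. It had signals of 2076 and 2198 in the controls and 1874 and 1810 in the RNase H1 arrays. The groups did not overlap, and the distance between them was small. The 95% interval of the log2 fold change of FUM1 ran from −0.50 to 0.07. MDH1, the mitochondrial malate dehydrogenase, had signals of 2974 and 2926 in the controls and 2281 and 2622 in the RNase H1 arrays. Here array 1 was the lower of the pair, as for LSC1, whereas array 2 was the lower for the other 8 genes. MDH1 was at −0.27 ± 0.11 (adjusted p = 0.232).

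Among all tested probe sets, FUM1, MDH1 and SDH4 lay in the broad middle of the fold changes, with between 24.7% and 31.8% of probe sets at lower values. KGD1, KGD2, LSC1, LSC2 and SDH3 had between 5.96% and 14.1% of probe sets below them. SDH2 had 2.30% below it. The 6 genes other than the succinate dehydrogenase subunits had a median of −0.54, and the 4 subunits one of −0.70.

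**Figure D2:**
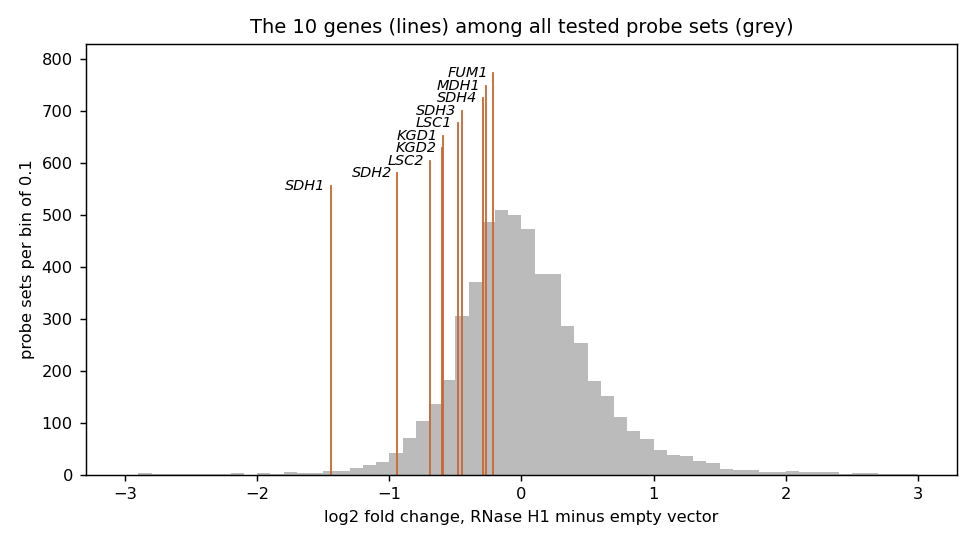
Histogram of log2 fold changes (RNase H1 arrays minus empty-vector arrays) of the tested probe sets, with the number of probe sets per bin of 0.1 on the vertical axis and the 10 genes as orange lines whose heights only separate the labels. The axis ends at 3 in both directions, which leaves 25 of 5470 probe sets undrawn. All 10 lines lie left of 0, from SDH1 at −1.44 to FUM1 at −0.21.

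The genes of the steps before 2-oxoglutarate had values on both sides of 0. IDH1 and IDH2 encode the NAD-dependent isocitrate dehydrogenase, which makes 2-oxoglutarate. They were the 2 of 5 measured genes of the early cycle that passed, both higher, against 1.13% of all tested probe sets. IDH1 had signals of 2141 and 2191 in the controls and 6019 and 6476 in the RNase H1 arrays (log2 fold change 1.53 ± 0.09, adjusted p = 0.0102). IDH2 had signals of 4137 and 4375 against 6988 and 7479 (0.76 ± 0.07, adjusted p = 0.0292). Without an intensity trend in limma neither passed (adjusted p = 0.0765 for IDH1 and 0.135 for IDH2), and after median scaling IDH2 did not (adjusted p = 0.0765). ACO1, aconitase, an iron-sulphur enzyme, lay above the controls in both arrays, with signals of 5406 and 5532 against 8047 and 7170 (0.47 ± 0.08, adjusted p = 0.0741). CIT1, the mitochondrial citrate synthase, was at −0.39 ± 0.10 (adjusted p = 0.124), with both RNase H1 arrays below both controls, and its minor relative CIT3 was at 0.98 ± 0.62 (adjusted p = 0.388) at signals of 30.5 to 119. The difference between the early and the later steps was not tested.

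**Figure D3:**
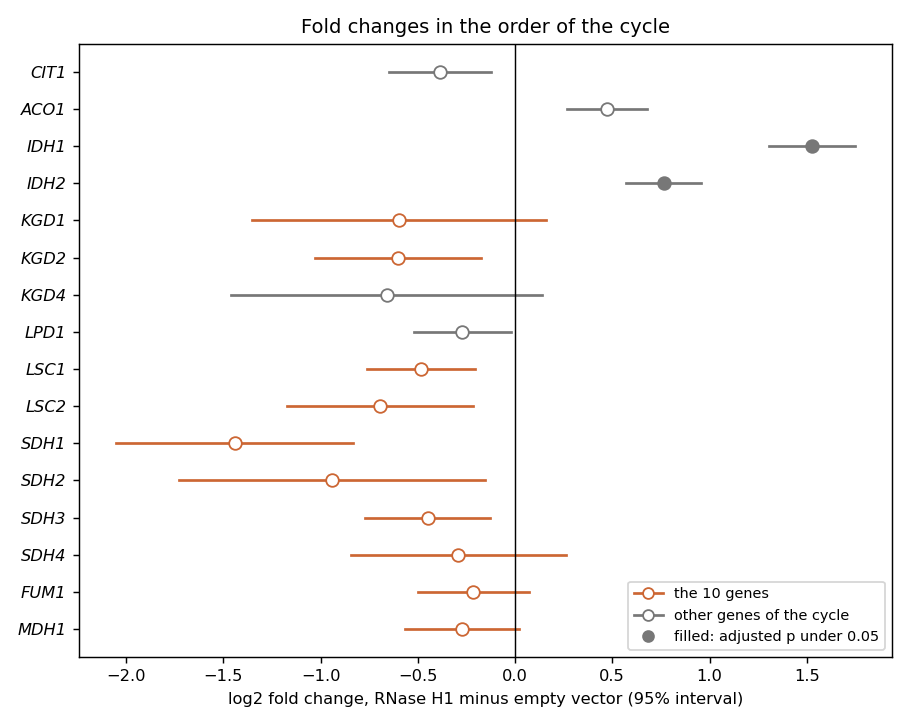
Log2 fold change (horizontal axis, RNase H1 arrays minus empty-vector arrays, n = 2 against 2) with its 95% interval from limma, for genes in the order of the cycle. The 10 genes are orange, other genes grey, and filled points passed an adjusted p under 0.05. IDH1 and IDH2 are the filled points, at 1.53 and 0.76; every orange point lies below 0, and the intervals of KGD1, SDH4, FUM1 and MDH1 include 0.

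Proteins that work with these enzymes gave 0 passes of 8, with 4 genes below 0 and 4 above. At an unadjusted p under 0.05, 1 was lower and 0 higher, against 12.7% and 11% of all tested probe sets. KGD4, which holds the E3 subunit in the 2-oxoglutarate dehydrogenase complex, had signals of 1460 and 1711 against 1334 and 750 and a fold change of −0.66 ± 0.31 (log2; adjusted p = 0.267). Its pattern over arrays was like that of KGD1, with array 2 the lower of the pair. LPD1, the E3 subunit itself, which the pyruvate dehydrogenase complex also uses, was at −0.27 ± 0.10 (adjusted p = 0.189). Factors that build succinate dehydrogenase did not go one way. SDH5, needed to attach the flavin to SDH1, was at 0.51 ± 0.34 (adjusted p = 0.403), and SDH8, a chaperone of SDH1, at −0.11 ± 0.17 (adjusted p = 0.734). SDH6 and SDH7, which help SDH2 to mature, were at −0.82 ± 0.57 (adjusted p = 0.428) and 0.35 ± 0.18 (adjusted p = 0.310). SDH6 had signals of 428 and 373 in the controls, 403 in array 1 and 128 in array 2, so array 2 alone lay apart. FLX1, a mitochondrial carrier needed for FAD supply, was at 0.26 ± 0.22 and TCM62, a chaperone of complex assembly, at 0.06 ± 0.22 (adjusted p = 0.496 and 0.892).

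Isoenzymes and paralogs gave 0 passes of 6, and 0 also at an unadjusted p under 0.05. At that p, 11% of all tested probe sets were higher and 12.7% lower. SHH4, a paralog of SDH4, had signals of 242 and 251 in the controls and 301 and 263 in the RNase H1 arrays (log2 fold change 0.19 ± 0.19, adjusted p = 0.578). SHH3, a paralog of SDH3, was dim, at 12.3 to 20.7. The paralog of SDH1, SDH9 (YJL045W), was not analysed here. MDH2, the cytosolic malate dehydrogenase, had signals of 2263 and 2319 in the controls but 1252 and 2530 in the RNase H1 arrays, which lay on either side of the controls. MDH3, the peroxisomal enzyme, was at −0.42 ± 0.18 (adjusted p = 0.245). The fumarate reductases, which run the succinate dehydrogenase reaction backwards, were at −0.43 ± 0.18 for OSM1 (adjusted p = 0.232) and −0.10 ± 0.11 for FRD1 (adjusted p = 0.611).

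Carriers that move intermediates of the cycle across the inner membrane gave 0 passes of 7. An unadjusted p under 0.05 was found for 1 higher and 1 lower gene, against 11% and 12.7% of all tested probe sets. YHM2, which exchanges citrate and 2-oxoglutarate, had signals of 2602 and 2691 in the controls and 1804 and 1876 in the RNase H1 arrays (−0.52 ± 0.10, adjusted p = 0.0877). ODC2, an oxodicarboxylate carrier, had signals of 2172 and 2092 against 2847 and 2831 (0.41 ± 0.10, adjusted p = 0.109). For both, the groups lay well apart relative to their spreads, in opposite directions. Over the 27 genes of these 4 lists, 26 had a tested probe set, 2 passed as higher and 0 as lower, and the median was 0.11.

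Of 5 HAP genes, 0 passed, and 0 had an unadjusted p under 0.05. HAP4, the subunit that activates transcription and whose level sets the activity of the complex, had signals of 483 and 588 in the controls, 677 in array 1 and 1706 in array 2 (log2 fold change 1.01 ± 0.46, adjusted p = 0.263). HAP4 was highest in array 2, where 8 of the 10 genes and 3277 of 5470 probe sets lay below array 1. The part of HAP4 in the values of the 10 genes was not tested. HAP3, a DNA-binding subunit, was at 0.44 ± 0.19 (adjusted p = 0.241). Among 11 measured genes outside the cycle that glucose represses, 0 passed. An unadjusted p under 0.05 was found for 3 higher genes and 1 lower gene, against 11% and 12.7% of all tested probe sets. The median was 0.59, but several of the 11 were dim, with signals down to 12.9, so it rests in part on weak signals. CYB2, a lactate dehydrogenase that feeds cytochrome c, was at 1.22 ± 0.31 (adjusted p = 0.118), and the hexose transporter gene HXT7, whose probe set is shared with a close relative, at −1.76 ± 0.63 (adjusted p = 0.194).

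TIS11 (Cth2) and CTH1 are RNA-binding proteins that, in iron-deprived yeast, bring about the decay of transcripts for iron-using proteins, that of SDH4 among them. TIS11 passed, with signals of 59.2 and 89.9 in the controls and 2699 and 3618 in the RNase H1 arrays (5.42 ± 0.29, adjusted p = 0.00905). CTH1 had signals of 674 and 666 against 988 and 1143 (0.67 ± 0.16, adjusted p = 0.109). Of the genes whose products hold iron-sulphur clusters here, SDH2 was at −0.94 and ACO1 at 0.47. The part of TIS11 and CTH1 in these values was not tested.

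The RNase H1 arrays also differed in genes of the general stress response, which follow growth rate and stress. All 10 of the stress genes examined were lower in array 2 than in array 1, as were 8 of the 10 cycle genes and 3277 of 5470 probe sets. Relative to the controls, the stress genes had a median of 0.89 in array 1 and −0.51 in array 2, while the 10 cycle genes had medians of −0.42 and −0.65. HSP26, a small heat shock protein, was at 576 and 840 in the controls and 4647 and 1924 in arrays 1 and 2, and GSY2, glycogen synthase, at 1638 and 1721 against 1235 and 324. Among the stress genes 0 passed. Their unadjusted p was under 0.05 for 1 higher gene and 0 lower genes, against 11% and 12.7% of all tested probe sets. Actin probe sets at the 3' and 5' ends gave a ratio of 1.40 to 1.41 in the controls, and of 1.47 and 1.30 in arrays 1 and 2 by one group of control probe sets, and 1.34 in both controls and 1.68 and 1.48 by the other. The part of growth state and RNA quality in the values of the cycle genes was not tested. Against the controls, each array alone placed all 10 genes below 0.

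**Figure D4:**
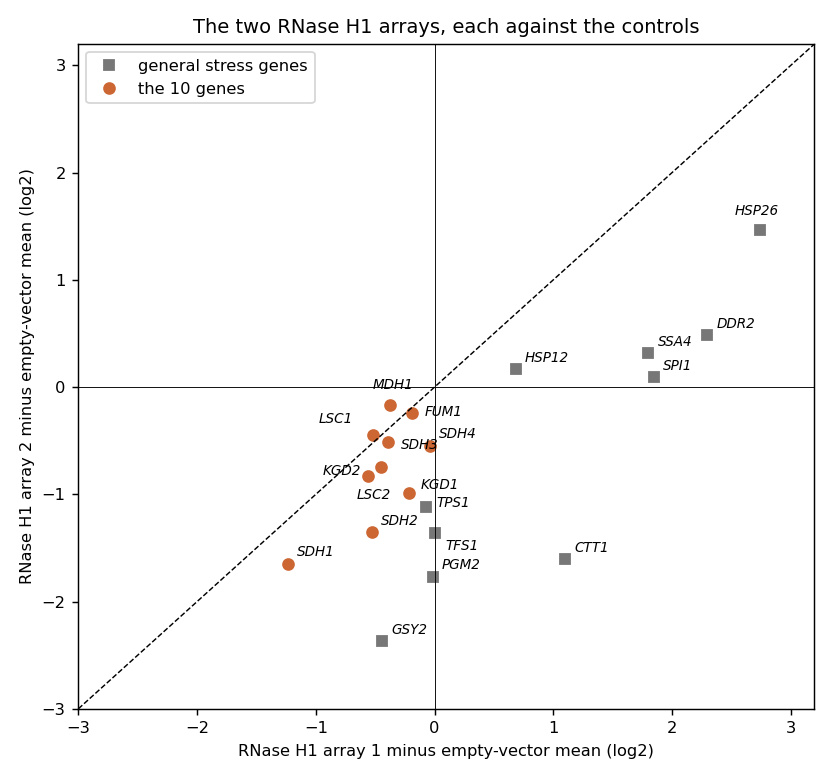
Log2 signal minus the empty-vector mean in array 1 (horizontal axis) and array 2 (vertical axis) labelled RNase H1, for the 10 cycle genes (orange circles) and 10 general stress genes (grey squares). The dashed line marks equal values in both arrays. The orange points all lie below 0 on both axes, and LSC1 and MDH1 are the ones above the dashed line. The grey points all lie below the line. CTT1 and TFS1 lie above 0 in array 1, TFS1 by 0.0017 only, and below 0 in array 2.

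By likeness over the 4 arrays to the mean of SDH1 to SDH4, the nearest genes outside the 10 were RKM1, a lysine methyltransferase for ribosomal proteins, PDS5, a cohesin maintenance factor, PTC5, the mitochondrial phosphatase that acts on pyruvate dehydrogenase, SCY1, a kinase-like protein, and FKH1, a forkhead transcription factor. Likeness was the Euclidean distance between log2 signals set to the control mean, and these 5 lay between 0.0855 and 0.103. The subunits' mean was −0.55 in array 1 and −1.01 in array 2. RKM1 had signals of 628 and 703 in the controls and 433 and 318 in the RNase H1 arrays. Within a wider distance of 0.5 lay 473 probe sets. The mean is not the profile of each subunit: in arrays 1 and 2, SDH1 was at −1.24 and −1.65 and SDH4 at −0.04 and −0.54.

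No 2 of the 10 genes are next to each other in the genome, by gene order in the R64 annotation. Of their 20 flanking protein-coding genes, 18 had 1 tested probe set. None of these 18 passed; 9 were below 0, their median was 0.01, and their range was −1.48 to 1.33. For 4 of the 18 both RNase H1 arrays lay below both controls, and for 5 both lay above. Over all tested probe sets these shares were 30.8% and 28%. DBR1 and AVT3, which flank SDH1, were at −0.06 and −0.16. AYR1, next to KGD1, was at −1.48 (adjusted p = 0.145), and MPC3, a mitochondrial pyruvate carrier subunit next to LSC2, at 1.33 (adjusted p = 0.132).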

How the data were processed

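Each deposited value is the linear signal intensity of a probe set on 1 array. The authors extracted it with MAS5 in Affymetrix Expression Console, as the submitters' processing notes record; which target the arrays were scaled to is not given in these sources. RNA had been amplified in vitro from 150 ng for 8 h, per the labels' protocols. The table held 10928 probe sets, 5498 of them annotated to exactly 1 S. cerevisiae gene. Symbols follow the R64 annotation. Mean log2 signals were taken over the 4 arrays. Probe sets were kept if theirs lay above the 75th percentile of the means of 1746 S. pombe probe sets. That percentile was a signal of 2.13, and 28 probe sets were left out. Log2 signals were compared with limma 3.58.1 in R 4.3.3 (lmFit, eBayes with an intensity trend), two-sided, with Benjamini-Hochberg adjustment over all 5470 probe sets and a threshold of 0.05. The fit was tested on simulated arrays with the same spread in both groups and without the dim filter. In the data the RNase H1 arrays differed more from each other than the controls did, a setting that was not simulated. The labels call the replicates biological, and the groups were treated as unpaired. Precision is limited by the number of arrays. Signals are not compared between probe sets.

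The 10 genes and the lists were chosen with earlier results of these data known. The naming rule took all 10 genes and the genes of the early cycle, isoenzymes, partners and assembly factors. It also took up to 4 genes with the smallest p of each other list, and the 5 nearest profiles. RNH1, LEU2, HAP4, TIS11 and CTH1 were always named. Strain markers and flanking genes named beside these, and the stress genes CTT1 and TFS1, were chosen after their values were seen. The lists not described in the report by name hold strain markers (STE2, MFA1, MFA2, STE3, MF(ALPHA)1, LEU2, URA3, HIS3, MET17, RNH1), of which 9 were tested, 0 passed as higher and 1, STE2, as lower. LEU2, the plasmid marker, was at −0.28 (adjusted p = 0.0663). Alternatives were other scalings (quantile, median, cyclic loess), other dim filters (none, 95th percentile), pseudocounts (16, 64), eBayes without the trend or robust, a block for the replicate number, leaving out arrays singly, a threshold of 0.10 and, added after seeing the data, a crossed replicate block.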

Additional observations from a re-analysis of the deposited data

How the results depend on the processing

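The 10 log2 fold changes stayed below 0 under every alternative run, and their median lay between −0.65 and −0.42. The number of the 10 that passed as lower was 1 after quantile scaling, 1 at an adjusted p under 0.10 (SDH1 both times), and between 0 and 8 with 1 array left out. Among the 26 tested genes in the 4 lists from early cycle to carriers, 1 passed as higher after median scaling. Without an intensity trend 0 of them did. At an adjusted p under 0.10, 1 passed as lower. Over all probe sets, 62 were called higher and 19 lower; 12 were lower with a pseudocount of 64 and 12 with robust eBayes, 7 were higher and 0 lower without an intensity trend, 192 and 173 at an adjusted p under 0.10, and with 1 array left out between 54 and 1184 were higher and between 10 and 1604 lower. Fits without 1 array labelled RNase H1 assume that the lone array varies like the controls. Changes of sign with 1 array left out were looked for among the 10 genes, the early cycle, isoenzymes, partners and assembly factors. There, signs changed for MDH2 (−0.87 to 0.14), SDH6 (−1.64 to 0.012), SDH8 (−0.26 to 0.045) and TCM62 (−0.17 to 0.29). Carriers and the other lists were not checked in full. With the replicate block 0 of the 10 genes passed, and over all probe sets 66 were higher and 16 lower; the labels do not say that equal numbers share a day or batch. Deviations of equal numbers correlated at −0.30 across 5470 probe sets, and with the crossed replicate block, in which numbers are swapped in 1 group, 5 of the 10 passed as lower, 2 other cycle genes as lower, and 483 and 454 of all probe sets as higher and lower. The cause of these shifts was not tested.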
